A study of Mus musculus with 29 samples.

Results

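The 9 genes described here, Mrc1, Cd163, Lyve1, Pf4, Ms4a7, F13a1, Stab1, Folr2 and Cbr2, are markers of border macrophages, and they were taken as a fixed list of names out of 21911 protein-coding genes. For each gene, every peak region that overlapped the gene body or 20 kb on either side of it was collected from the 25 deposited CUT&RUN peak lists, and each region was counted once per library. The 9 gene windows held 671 of the 1008691 distinct regions of all lists. CUT&RUN maps a chromatin protein by tethering a nuclease to it through an antibody and sequencing the DNA that the nuclease releases.

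The transcription factor IRF8 was mapped in female mice of the IRF8-EGFP strain through an antibody against GFP. These libraries came from microglia sorted at postnatal day 9 (P9, 4 libraries), at postnatal day 14 (P14, 3 libraries) and from adults 3 months old (3 libraries), and from macrophages of the peritoneum (3 libraries). Sorted microglia were also profiled for PU.1, another transcription factor, and for 2 histone modifications, H3K27ac and H3K4me1. There were 2 libraries of each target from adult female wild-type mice (WT) and 2 from adult female mice of the strain IRF8KO (KO), 3 months old. The sources used here do not state the knockout allele, the sorting gate or the number of animals per library, so p-values measure only the spread between these libraries, which may be technical. Cells for IRF8 and PU.1 were fixed with formaldehyde before sorting. The source label of the macrophage libraries names microglia, and their title was followed.

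Border macrophages are the macrophages of the meninges, the perivascular spaces and the choroid plexus. They share their myeloid origin with microglia, but they are told apart by high expression of scavenger and endocytic receptors that mature microglia express weakly or not at all. PU.1 is a factor that all macrophages need, and IRF8 is its partner at many sites, where the pair can bind a composite DNA element. H3K4me1 marks primed and active enhancers, and H3K27ac marks active enhancers and promoters.

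Libraries held 7250496 to 24705885 fragments, and their lists held 1168 to 189351 distinct regions. Among the microglia IRF8 lists, length differed between stages, with 1168 to 2068 regions at P9, 7931 to 19243 at P14 and 17048 to 29667 in adults. Replicate 2 of KO H3K27ac was the shallowest library of that mark, with 8572250 fragments and 17.0 Mb covered, against 65.6 Mb in KO replicate 1 and 87.6 and 76.9 Mb in the WT libraries. The labels were checked against marker genes: an adult IRF8 consensus region (peaks of 2 or more libraries of a group, merged) lay at 12 of 12 homeostatic microglia genes (50.6% of all gene windows), and a macrophage one at 8 of these 12 (39.9% of all). Of 10 peritoneal macrophage genes, 9 had a macrophage IRF8 consensus region and 2 an adult one. Whether a signal in a sorted population comes from all cells or from a subset of them cannot be told apart in these lists, and a region without a peak is one that did not pass the authors' threshold, not one without binding.

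Windows of 300 bases around the strongest summit of 5 sites are shown, because the comparisons below turn on them. The Mrc1 intron site (chr2:14250040-14250339) held a PU.1 region in both genotypes. The Pf4 promoter site (chr5:90772135-90772434) and the F13a1 intron site (chr13:37034607-37034906) held PU.1 regions in KO only. The Cd163 upstream site (chr6:124297243-124297542) and the Folr2 promoter site (chr7:101857312-101857611) held strong IRF8 regions in peritoneal macrophages. Letters are from the plus strand of GRCm38.p6 (RefSeq), and capitals mark matches to 4 motifs searched on both strands: GGAAGT (the ETS core bound by PU.1), a composite ETS-IRF element (GGAA and GAAA with 2 free bases between, which can overlap the ETS core), an interferon-response-like element (GAAA and GAAA with 2 free bases between) and TGANTCA (AP-1).
Mrc1 intron: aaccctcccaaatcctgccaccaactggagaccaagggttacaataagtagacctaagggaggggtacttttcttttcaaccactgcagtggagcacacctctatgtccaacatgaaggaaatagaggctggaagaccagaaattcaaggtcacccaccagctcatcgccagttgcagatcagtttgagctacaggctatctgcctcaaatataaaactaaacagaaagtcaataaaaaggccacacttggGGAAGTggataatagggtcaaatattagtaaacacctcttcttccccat
Pf4 promoter: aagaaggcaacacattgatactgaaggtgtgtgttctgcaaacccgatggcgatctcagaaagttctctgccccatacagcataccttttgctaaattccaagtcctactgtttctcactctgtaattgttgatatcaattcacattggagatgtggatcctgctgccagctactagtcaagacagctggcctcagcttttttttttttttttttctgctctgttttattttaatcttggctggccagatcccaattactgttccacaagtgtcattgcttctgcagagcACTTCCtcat
F13a1 intron: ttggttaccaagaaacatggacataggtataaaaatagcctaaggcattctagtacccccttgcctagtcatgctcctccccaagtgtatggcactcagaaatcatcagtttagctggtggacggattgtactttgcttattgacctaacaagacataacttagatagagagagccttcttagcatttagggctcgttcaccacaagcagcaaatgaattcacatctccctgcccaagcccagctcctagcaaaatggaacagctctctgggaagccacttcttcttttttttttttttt
Cd163 upstream: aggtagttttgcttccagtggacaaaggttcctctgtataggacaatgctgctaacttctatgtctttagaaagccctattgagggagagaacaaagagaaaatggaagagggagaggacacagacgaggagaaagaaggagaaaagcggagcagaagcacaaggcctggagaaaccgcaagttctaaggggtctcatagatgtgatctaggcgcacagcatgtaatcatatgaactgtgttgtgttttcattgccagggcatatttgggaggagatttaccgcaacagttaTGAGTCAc
Folr2 promoter: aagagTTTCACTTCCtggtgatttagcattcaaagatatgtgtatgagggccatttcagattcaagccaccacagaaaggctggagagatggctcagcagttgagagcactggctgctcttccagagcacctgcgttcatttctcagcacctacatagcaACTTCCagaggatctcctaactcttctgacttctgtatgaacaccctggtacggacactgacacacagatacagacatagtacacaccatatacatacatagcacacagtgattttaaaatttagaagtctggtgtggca

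Among all KO PU.1 consensus regions, 54.0% held the ETS core in a window of this length, 6.37% the composite element, 5.02% the interferon-response-like element and 9.90% the AP-1 motif. The Mrc1 and Pf4 windows each held 1 ETS core, at offsets of 101 and 140 bases from the summit and so away from it. The F13a1 window held none of the 4 motifs. Among all macrophage IRF8 consensus regions the shares were 34.4%, 9.15%, 8.28% and 11.4%, in the same order. The Folr2 window held 2 ETS cores, 1 at an offset of 10 bases from the summit and 1 as part of a composite element. That element, at an offset of -145, lay near the window edge. The Cd163 window held only an AP-1 match, at an offset of 142 and also near the edge. In the RefSeq table of 300-base promoters, of the same build, the genes other than Lyve1 had 11 entries. The composite element was found in 1 of these 11 promoters, that of Folr2, and 2.72% of all 32851 promoters held it. It is the same stretch of bases as in the Folr2 window above. The ETS core was found in 5 of the 11 (23.8% of all), the interferon-response-like element in 0 (3.44%) and the AP-1 motif in 2 (7.81%). A match is a match of letters only, and a window without one lacks only these letters.

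The 9 genes differed in how much IRF8 signal they had in microglia. Mrc1, the mannose receptor that takes up glycoproteins, held the most regions. Its window spanned 143 kb, among windows of 40.9 kb (Pf4) to 223 kb (F13a1), and region numbers were not scaled by window length. Cd163, the scavenger receptor for haemoglobin bound to haptoglobin, and Ms4a7, a membrane protein of the MS4A family, held almost none. At P9 no gene of the 9 had an IRF8 consensus region, where 7% of all protein-coding gene windows had one. At P14 there were 4 genes with 7 regions (32% of all windows), in adults 7 genes with 14 regions (50.6%), and in peritoneal macrophages all 9 genes with 19 regions (39.9%). Without adult replicate 2, the longest adult list, 4 genes had an adult consensus region, Mrc1, Lyve1, Stab1 and Cbr2 (34.1% of all windows). Within gene bodies alone 3 of the 9 had one, near the share of all genes (32.6%).

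**Figure D1:**
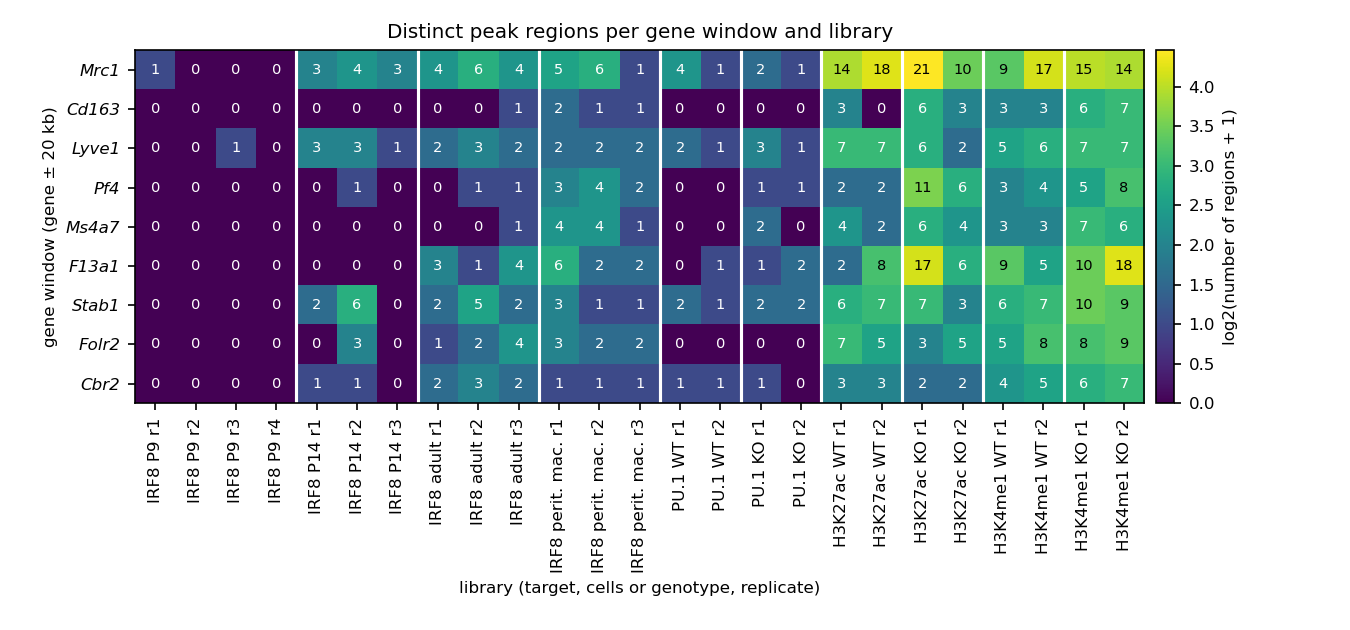
Number of distinct peak regions in each gene window (rows) and library (columns, with target, cells or genotype, and replicate), printed in each cell, with colour on a log2(number of regions + 1) scale. Mrc1 held 14 to 18 WT H3K27ac regions, and Cd163 held no IRF8 region in any P9 or P14 library.

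The endocytic receptors are described first. The Mrc1 window held 1, 0, 0 and 0 IRF8 regions in the P9 libraries, 3, 4 and 3 at P14, and 4, 6 and 4 in adults. No P9 library reached any P14 or adult library, and the P14 and adult libraries overlapped at 4 regions. All 4 adult consensus regions of Mrc1 lay in the first part of the gene. The strongest of them, chr2:14248827-14250435, had an authors' fold enrichment over the control of 10.2, 13.1 and 6.43 in the 3 adult libraries, and its mean rank by −log10 p was at percentile 86.7 of the lists. It overlapped consensus regions of P14 and macrophage IRF8, of PU.1 in both genotypes, of WT H3K27ac and of H3K4me1 in both genotypes. In macrophages the region at this place, chr2:14249413-14250771, had folds of 21.4, 12.3 and 7.01.

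Stab1 encodes stabilin-1, a scavenger receptor that clears matrix and acetylated ligands. Its window held no IRF8 region in the 4 P9 libraries, 2, 6 and 0 at P14, and 2, 5 and 2 in adults, so that P14 and adult libraries overlapped. Of its 3 adult consensus regions, 1 lay in a Stab1 intron (chr14:31152947-31153424, folds of 8.07 and 5.60 in 2 of 3 libraries). The other 2 lay in the neighbouring genes Nisch and Smim4, and the region in Nisch was also a macrophage IRF8 region and a PU.1 region in both genotypes. Lyve1, the hyaluronan receptor of lymphatic vessels and perivascular macrophages, held 0, 0, 1 and 0 regions at P9, 3, 3 and 1 at P14, and 2, 3 and 2 in adults. Both of its adult and both of its macrophage consensus regions lay at Rnf141, a gene downstream of it, so they mark the neighbourhood and not the Lyve1 gene itself. Folr2, the folate receptor beta, held no region at P9, 0, 3 and 0 at P14, and 1, 2 and 4 in adults. Its adult consensus region chr7:101851514-101852350 lay in an intron, with folds of 9.34 and 7.82 in 2 of 3 libraries.

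Cd163 held an IRF8 region in 1 of 10 microglia libraries, adult replicate 3. Ms4a7 likewise held a region in adult replicate 3 and in no other microglia library. That replicate is the only adult library of batch 2.

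The remaining members are a chemokine and 2 enzymes. Pf4, platelet factor 4, a CXC chemokine that border macrophages express, held 0, 1 and 0 regions at P14 and 0, 1 and 1 in adults. Its adult consensus region, chr5:90771161-90772003, ended 432 bp before the Pf4 start, with folds of 4.15 and 7.62. F13a1, the catalytic subunit of the clotting transglutaminase factor XIII, held no region at P9 or P14, and 3, 1 and 4 in adults. The adult libraries of F13a1 thus lay above all 7 younger libraries. Its adult consensus region chr13:37056551-37057487 lay 6307 bp upstream of the gene. Cbr2, a carbonyl reductase, held 1, 1 and 0 regions at P14 and 2, 3 and 2 in adults, with every adult library above every P14 and P9 library. Its stronger adult consensus region, chr11:120713640-120714171, lay downstream in Cenpx and Lrrc45, with folds of 5.19 and 6.84 in 2 of 3 libraries, and the other lay upstream of the gene.

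The stages were compared by the number of regions per library. In 5 of the 9 windows, Mrc1, Cbr2, F13a1, Folr2 and Stab1, the number had an increasing trend over P9, P14 and adults. The trend was called by an exact two-sided Jonckheere-Terpstra permutation test over 4200 assignments with Benjamini-Hochberg adjustment over 16449 genes. Such a trend needs no rise at each step, and F13a1 had means of 0, 0 and 2.67. The same test called 46% of all genes tested higher and 0% lower, so the share among the 9 was close to that of all genes. Mrc1 had a statistic of 32 of a possible 33 (exact permutation p = 0.000952, adjusted p = 0.0156), with mean region numbers of 0.25, 3.33 and 4.67. Cbr2 followed at 31 (adjusted p = 0.0156 by the same exact test). F13a1, Folr2 and Stab1 each reached 27, with adjusted exact p of 0.0283, 0.0379 and 0.0471. Lyve1 did not pass (27.5, adjusted exact p = 0.0694), nor did Pf4 (24, 0.165), Cd163 and Ms4a7 (both 20, 0.333). With every list shortened to the length of the shortest, 0 of the 9 and 0% of all genes were called. Such short lists leave few regions for any gene, so this setting does not separate the increase from the lengthening of the lists. Each stage was called against a different control library, and stage and control cannot be told apart. Leaving out any 1 P9 library, or any 1 adult library, left Mrc1 and Cbr2 called, where 9.73% to 10.8% and 12.2% to 32.9% of all genes were called. Leaving out P14 replicate 3 left Mrc1, F13a1 and Cbr2 called (40.7% of all genes). Without P14 replicate 1 or 2, Lyve1 was called too, among 4 and 6 of the 9 genes (39.8% and 49.6% of all genes).

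The next comparison set adult microglia beside peritoneal macrophages. Cd163 and Ms4a7 had an IRF8 consensus region in macrophages and none in adult microglia, a pattern found in 6.16% of all protein-coding genes. The other 7 genes had one in both cell types (33.8% of all genes), and none had one in microglia alone (16.9%). This split depended on single macrophage libraries. No macrophage region was left at Ms4a7 and Stab1 without replicate 1, at Ms4a7, Stab1 and Cbr2 without replicate 2, and at Cbr2 without replicate 3. Of all genes 16.2%, 17.7% and 37.1% had one in these settings. The macrophage region of Cd163, chr6:124296604-124298080, ended 6576 bp upstream of the gene. It had folds of 18.6, 16.2 and 5.51, stood at percentiles 98.8, 98.7 and 75.2 of the 3 lists, and overlapped no consensus region of any other group. The single adult region of Cd163, in replicate 3, lay elsewhere, downstream of the gene at chr6:124341102-124341439.

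Ms4a7 held 4, 4 and 1 macrophage regions against 0, 0 and 1 in adults. Its 2 macrophage consensus regions were of middling strength, with folds of 5.78 and 3.97 at the 3′ end of the gene and of 4.61 and 4.89 upstream. Within batch 1 the 2 macrophage libraries both held more regions than the 2 adult ones for Cd163 (2 and 1 against 0 and 0), Ms4a7 and Pf4, as in 6.64% of all genes. In batch 2, with 1 library of each, Cd163 and Ms4a7 had 1 region in each cell type.

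Of the 9 genes, only Pf4 had more regions in every macrophage library (3, 4 and 2) than in every adult library (0, 1 and 1), as in 1.15% of all genes. Only Cbr2 had the opposite order (1, 1 and 1 against 2, 3 and 2), as in 7.25%. With 3 libraries against 3 the smallest exact p is 0.1, so no gene was tested. Folr2 held 3, 2 and 2 macrophage regions, which overlapped the adult numbers, but its strongest macrophage region was at another place than in microglia. That region, chr7:101856415-101858547, covered the Folr2 start and had folds of 21.2, 17.7 and 4.73. It overlapped H3K4me1 consensus regions of microglia of both genotypes but no microglial IRF8, PU.1 or H3K27ac consensus region. Of the 14 adult regions at the 9 genes, 10 overlapped a macrophage region (71.4%, against 39.5% of all adult regions). Of the 19 macrophage regions, 10 overlapped an adult one (52.6%, against 56.3% of all).

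All 14 adult IRF8 regions at the 9 genes overlapped a WT H3K4me1 region (91.3% of all adult regions did), and 12 of 14 (85.7%) overlapped a WT H3K27ac region (81.8% of all). Only 2 of 14 (14.3%) overlapped a WT PU.1 region, at Mrc1 and at Nisch beside Stab1, against 4580 of all 16935 adult regions. Of the 7 P14 regions, all 7 overlapped an adult region (92.6% of all P14 regions did).

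For the genotypes, a consensus region needed a peak in both libraries. A WT region was counted as lost when no KO library had an overlapping peak, and a KO region as present in KO only when no WT library had one. At the 9 genes 0 of 2 WT regions were lost for PU.1 (25.1% of all WT regions), 4 of 23 for H3K27ac (34%) and 0 of 32 for H3K4me1 (13%). Present in KO only were 2 of 5 KO regions for PU.1 (16.5% of all KO regions), 7 of 18 for H3K27ac (10.9%) and 14 of 54 for H3K4me1 (23.8%), the last near the share of all regions. With 2 libraries against 2 the smallest exact p is 0.333, so none of these counts was tested.

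**Figure D2:**
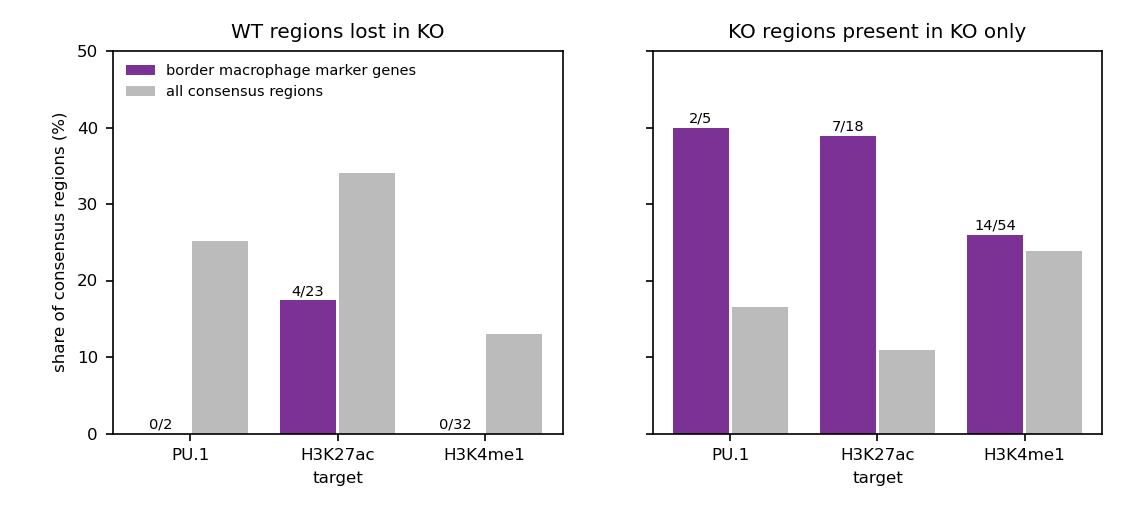
Share of consensus regions (%) that were lost in KO (left, of WT regions) or present in KO only (right, of KO regions) for PU.1, H3K27ac and H3K4me1, at the 9 genes (purple, with counts) and over all consensus regions (grey). For H3K27ac the 9 genes had 4 of 23 regions lost and 7 of 18 present in KO only, against 34% and 10.9% of all regions.

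PU.1 had a WT consensus region at 2 genes (22.4% of all windows) and a KO one at 5 genes (20.9%). A region present in KO only lay at 2 of the 9 genes (4.03% of all windows), and a lost region at 0 (6.41%). The Mrc1 intron site held PU.1 in both genotypes, with folds of 6.11 and 4.48 in WT (chr2:14249981-14250306) and 10.4 and 15.7 in KO (chr2:14249991-14250474). The site in Nisch upstream of Stab1 also held it in both, with folds of 8.14 and 4.68 in WT (chr14:31183086-31184137) and 9.86 and 8.80 in KO (chr14:31183133-31184098). Neither was lost, where 25.1% of all WT PU.1 regions were. Upstream of Lyve1, in Mrvi1, a KO region (chr7:110878230-110878977, folds of 10.2 and 6.05) was matched by a peak in 1 WT library.

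The 2 PU.1 regions present in KO only lay at Pf4 and F13a1 (16.5% of all KO PU.1 regions were present in KO only). At Pf4 the region chr5:90771342-90772663 covered the start of the gene, with folds of 9.15 and 7.18 and a mean percentile of 86.1. Pf4 held 0 and 0 PU.1 regions in WT and 1 and 1 in KO. Of the 9 genes, only Pf4 had KO libraries that both exceeded both WT libraries in PU.1 regions, as in 6.39% of genes, and none was lower in both (8.13%). The same place held adult and macrophage IRF8 regions and H3K27ac and H3K4me1 regions of both genotypes. At F13a1 the region chr13:37034648-37035146 lay in an intron, centred 15347 bp from the gene start, and was weaker, with folds of 5.86 and 3.36. At a q-value of 0.01 in every PU.1 library the F13a1 region dropped out, and Pf4 remained. Leaving out a library changed these PU.1 counts. From KO replicate 1 alone 6 of 12 regions were present in KO only, and from KO replicate 2 alone 4 of 7, as were 47.3% and 58.2% of all regions. From WT replicate 1 alone 5 of 9 regions were lost, and from WT replicate 2 alone 1 of 5, against 58.6% and 47.7% of all. PU.1 consensus regions were found in neither genotype at Cd163, Ms4a7, Folr2 and Cbr2.

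H3K27ac divided the genes. A WT consensus region lay at 7 of the 9 genes (61.7% of all windows) and a KO one at 8 (30.1%). At Lyve1 these regions all lay in the neighbouring genes Rnf141 and Mrvi1, and the only KO region of Folr2 covered the start of Anapc15. Regions present in KO only lay at Pf4 (2), Ms4a7 (2), Mrc1, Cd163 and F13a1 (1 each), in all 38.9% of the 18 KO regions, against 10.9% of all KO regions. Such a region lay at 5 of the 9 genes and at 4.71% of all protein-coding gene windows. Lost regions lay at Cbr2 (2), Mrc1 (1) and Stab1 (1), in all 17.4% of the 23 WT regions, against 34% of all WT regions. A lost region lay at 3 of the 9 genes and at 35.2% of all windows.

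The regions present in KO only ranged from weak to strong within their lists, with mean percentiles of 24.3 to 92.2. Cd163 had 1, chr6:124319688-124322461, inside the gene, with folds of 8.59 and 6.23 and a mean percentile of 88.4. Ms4a7 had chr19:11320799-11321495 at its 3′ end (7.51 and 7.66, percentile 92.2) and chr19:11323325-11325411 inside the gene (6.80 and 5.27, percentile 78.2). The first of these overlapped a macrophage IRF8 region. At Pf4 the 2 regions were chr5:90778435-90780384 (4.29 and 3.43, percentile 24.3) and chr5:90783521-90784610 (6.44 and 4.31, percentile 60.9), downstream of the gene. The first of them stood at percentile 1.70 of the list of KO replicate 2, near its threshold. They lay 5719 and 1493 bp from the start of Cxcl3, a chemokine gene of the same cluster, so they belong to the space between Pf4 and Cxcl3. At F13a1 the region chr13:37034800-37036509 (5.37 and 5.75, percentile 73.1) overlapped the PU.1 region present in KO only. At Mrc1 the intronic region chr2:14269207-14269933 (7.16 and 3.83, percentiles 91.6 and 14.7 in the 2 lists) overlapped no consensus region of another group. None of the 7 overlapped an adult IRF8 region, which 0.780% of all such regions did.

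The lost H3K27ac regions were at other places. At Mrc1 the lost intronic region chr2:14239117-14240225 (folds of 7.52 and 2.27 in WT) overlapped IRF8 regions of P14, adult and macrophage libraries. At Cbr2 both WT regions were lost, chr11:120729374-120730347 at the gene (5.24 and 6.87) and chr11:120747203-120748457 upstream (2.89 and 5.23), and the upstream one overlapped P14 and adult IRF8 regions. At Stab1 the lost region chr14:31160448-31161112 (2.69 and 3.30) was among the weakest, at percentile 13.4. Of the 4 lost regions 2 (50%) overlapped an adult IRF8 region, against 21.7% of all lost H3K27ac regions.

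**Figure D3:**
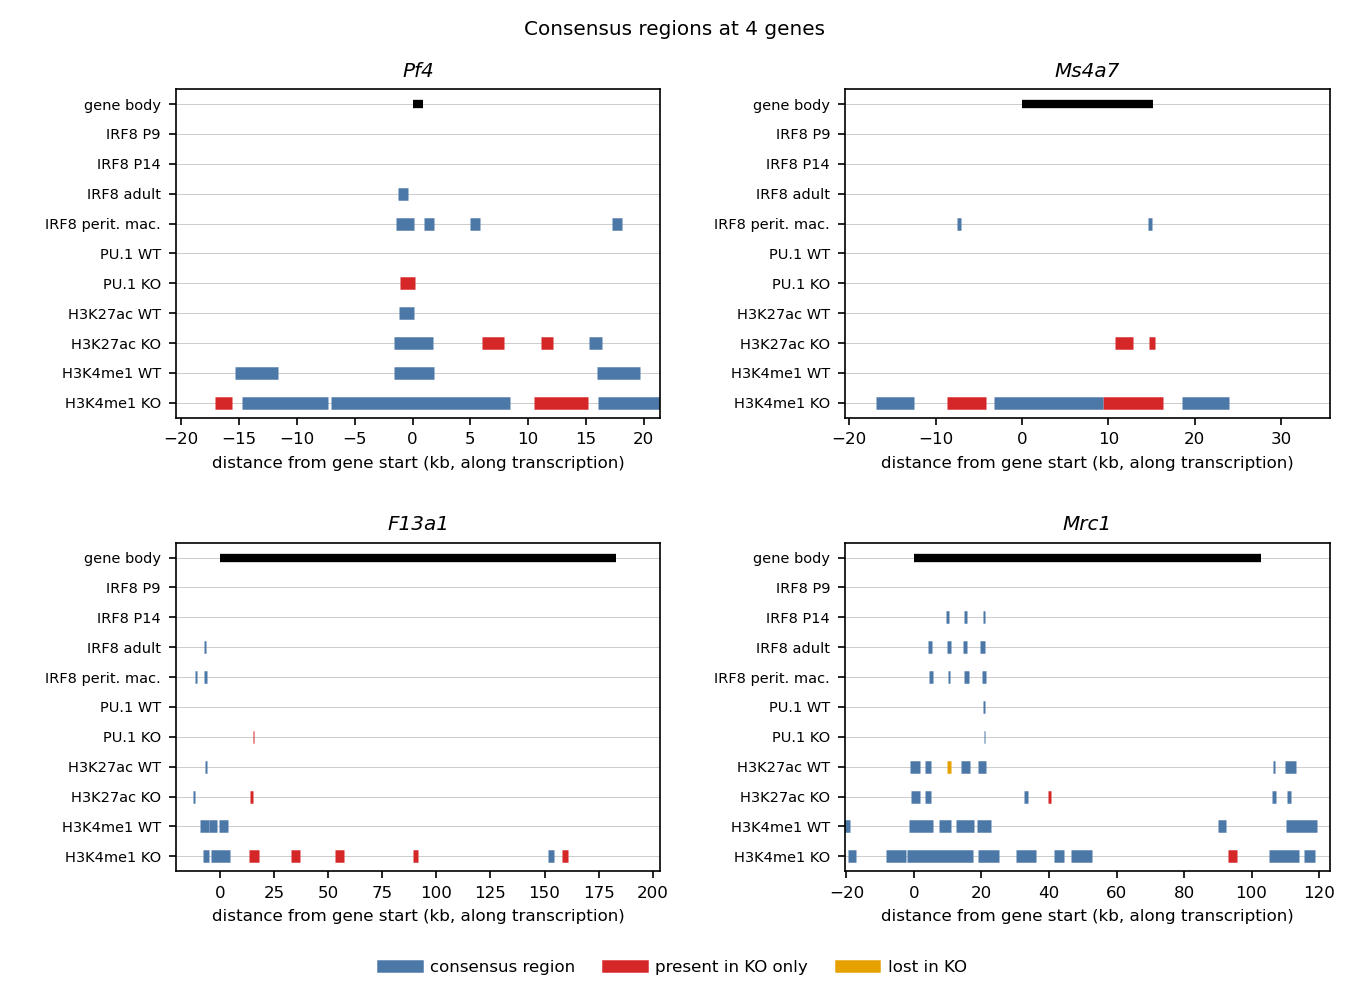
Consensus regions of the 10 groups (rows) at Pf4, Ms4a7, F13a1 and Mrc1, drawn as bars at their distance from the gene start in kb along the direction of transcription, with the gene body in black. Regions present in KO only are red and lost regions orange. In F13a1 the PU.1 and H3K27ac regions present in KO only, and 1 of the 5 such H3K4me1 regions, lie at 1 place near 15 kb.

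These H3K27ac counts depend on single libraries. From KO replicate 2 alone, the shallow one, 24 of 41 KO regions at the 9 genes were present in KO only, a share of 58.5% against 55.5% of all regions. From KO replicate 1 alone they were 54 of 79, or 68.4% against 55.9%. For the lost regions, WT replicate 1 alone gave 25 of 48 (54.5% of all regions), WT replicate 2 alone 29 of 52 (59.5%), and KO replicate 2 alone 12 of 23 (72.9%). The share present in KO only at the 9 genes lay above that of all regions in 10 of 10 alternatives, and the lost share lay below it in 10 of 10. The genes with a region present in KO only were Pf4, Ms4a7, F13a1, Cd163 and Mrc1. With gene bodies only Pf4 dropped out, and with the stronger part of each list or equal list length none of them did. The other alternatives keep or add such regions by construction, so they could not remove a gene.

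The length covered by H3K27ac divided the genes in part as the regions did. Pf4 had 1.57 and 1.25 kb covered in WT and 12.2 and 4.34 kb in KO. Ms4a7 had 1.84 and 1.07 kb in WT and 5.54 and 2.63 kb in KO. In both genes the KO libraries lay above the WT libraries, as in 5.5% of all genes tested. Cd163 had 1.33 and 0 kb against 6.40 and 1.24 kb, and F13a1 0.979 and 4.27 kb against 11.1 and 3.70 kb, so that for both the genotypes overlapped, KO replicate 2 lying within the WT range. Mrc1 also overlapped, at 14.4 and 15.9 kb in WT and 19.1 and 6.71 kb in KO. Lyve1, Stab1, Folr2 and Cbr2 lay lower in both KO libraries, as 42.7% of all genes did, although no H3K27ac region was counted as lost at Lyve1 and Folr2. These lengths take in neighbouring genes, and all H3K27ac consensus regions of the Lyve1 window lay in such genes. For example, Folr2 had 8.51 and 5.42 kb in WT and 2.23 and 2.37 kb in KO. The ratio of mean covered length, KO over WT, was 5.87 for Pf4, 5.76 for Cd163, 2.83 for F13a1 and 2.80 for Ms4a7. It was 0.849 for Mrc1, 0.465 for Cbr2, 0.415 for Stab1, 0.382 for Lyve1 and 0.33 for Folr2. Its median was 0.849 over the 9 genes and 0.512 over all genes covered in both genotypes, beside the low coverage of KO replicate 2.

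**Figure D4:**
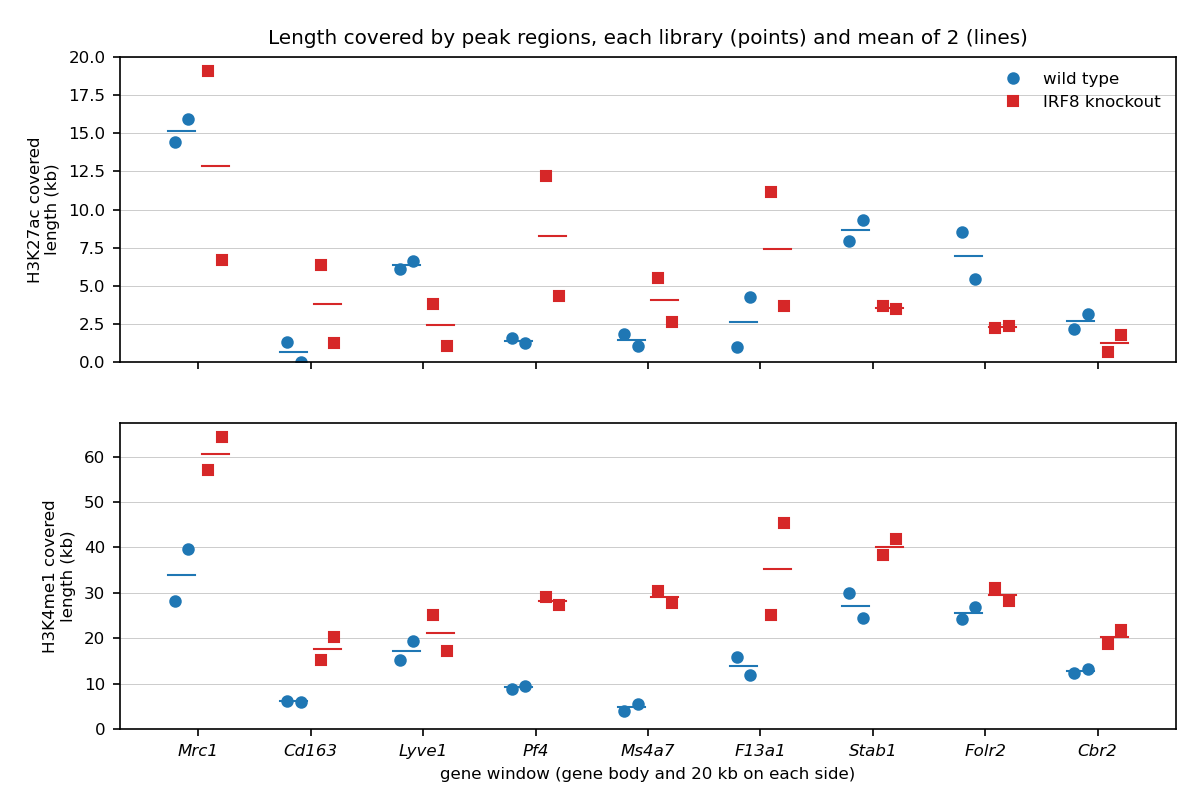
Length in kb covered by H3K27ac (top) and H3K4me1 (bottom) peak regions in each gene window, with 1 point per library (WT blue circles, KO red squares) and a line at the mean of the 2 libraries. Pf4 and Ms4a7 lay higher in KO for both marks, at 27.4 to 30.3 kb of H3K4me1 in KO.

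By number of H3K27ac regions, fewer genes were separate. Pf4 held 2 and 2 regions in WT and 11 and 6 in KO, and no other of the 9 genes had both KO libraries higher (5.76% of genes). Lyve1 (7 and 7 against 6 and 2) and Cbr2 (3 and 3 against 2 and 2) were lower in both KO libraries (18.1% of genes).

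H3K4me1 had a WT consensus region at 8 genes (79.6% of all windows) and a KO one at all 9 (82.1%). None of the 32 WT regions was lost, where 13% of all were. Of the 54 KO regions, 14 were present in KO only (25.9%, against 23.8% of all). F13a1 had 5 of them, Pf4, Ms4a7 and Folr2 had 2 each, and Mrc1, Lyve1 and Cbr2 had 1 each. Some lay at neighbouring genes: both Folr2 regions overlapped Anapc15, and the Lyve1 region lay in Mrvi1. Of the Pf4 regions, 1 covered the start of Cxcl3 and the other lay 2569 bp from the start of Cxcl5. At least 1 such region lay at 7 of the 9 genes and at 42% of all windows. None of the 14 overlapped an adult IRF8 region (0.576% of all such regions did), and 2 overlapped a macrophage IRF8 region, both at Ms4a7. From KO replicate 1 alone 28 of 74 regions (37.8%) were present in KO only, below the 41.7% of all regions. From KO replicate 2 alone they were 34 of 85 (40%), below 56.0%, and against WT replicate 1 alone 25 of 54 (46.3%), above 32.6%. The share at the 9 genes was thus not steadily above or below that of all regions. With 1 library left out, 1 to 6 regions were lost: 6 of 58 without WT replicate 1, 4 of 47 without WT replicate 2, 2 of 32 without KO replicate 1 and 1 of 32 without KO replicate 2. Over all regions 44.1%, 32.96%, 19.0% and 24.7% were lost in these settings.

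Ms4a7 stood out in covered H3K4me1 length, with 3.95 and 5.60 kb in WT and 30.3 and 27.8 kb in KO. Its ratio of 6.09 was at percentile 98.5 of all genes. The WT libraries held peaks at Ms4a7 but no consensus region, whereas 5 KO consensus regions covered the gene from upstream to downstream of it. Pf4 had 8.84 and 9.57 kb in WT and 29.0 and 27.4 kb in KO, Cd163 had 6.10 and 6.04 kb against 15.1 and 20.2 kb, and F13a1 had 15.9 and 11.8 kb against 25.1 and 45.4 kb. In all, 8 of the 9 genes were higher in both KO libraries, as 47.7% of all genes were, and Lyve1 overlapped. The median ratio was 1.78 over the 9 genes and 1.43 over all genes. KO replicate 2 covered 468 Mb, against 293 to 321 Mb in the other H3K4me1 libraries. By region number, 7 of the 9 were higher in both KO libraries (34.4% of genes) and none lower (2.6%).

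At 3 genes the marks coincided. In the F13a1 intron the PU.1 and H3K27ac regions present in KO only, and 1 of the 5 such H3K4me1 regions, overlapped each other. That H3K4me1 region, chr13:37032266-37036707, had folds of 3.97 and 2.88. Towards the 3′ end of Ms4a7 both H3K27ac regions present in KO only lay within an H3K4me1 region present in KO only, chr19:11319849-11326798, with folds of 4.06 and 3.58. Downstream of Pf4 the H3K27ac region nearer to Cxcl3 lay within an H3K4me1 region present in KO only, chr5:90782945-90787637, with folds of 3.37 and 2.50. None of these places held an adult or P14 IRF8 consensus region.

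Markers of other cells the sort could hold were counted in the same way. At 15 other border macrophage genes, 6 of 25 KO H3K27ac regions were present in KO only (24%), and 10 of 35 WT regions were lost (28.6%). Of all KO regions 10.9% were present in KO only, and of all WT regions 34% were lost. Of the 6 regions present in KO only at the list, 5 lay at Colec12, a scavenger receptor named here after its values were seen, and 1 at Cd38. Without Colec12, a setting added after seeing the data, 1 of 20 KO regions (5%) was present in KO only. At 12 homeostatic microglia genes 3 of 26 KO regions were present in KO only (11.5%), and 24 of 68 WT regions were lost (35.3%). At 10 peritoneal macrophage genes 0 of 6 KO regions were present in KO only, and 5 of 13 WT regions were lost (38.5%). The neuron, oligodendrocyte, astrocyte and lymphocyte lists had 0 of 1, 0 of 4, 0 of 4 and 0 of 1, and 3 of 5, 11 of 25, 14 of 27 and 2 of 4 of their WT regions were lost. For H3K4me1 the lists of other cells lay above and below the 23.8% of all KO regions that were present in KO only. At neuron genes 36 of 86 KO regions were present in KO only (41.9%), 19 of them at Rbfox3. So were 6 of 16 at lymphocyte genes (37.5%), 8 of 28 at astrocyte genes (28.6%) and 5 of 27 at oligodendrocyte genes (18.5%). At the other border macrophage genes 15 of 69 were (21.7%), at homeostatic microglia genes 5 of 40 (12.5%) and at peritoneal macrophage genes 6 of 32 (18.8%), against 14 of 54 at the 9 genes. The sources used here do not state how many border macrophages the sorted cells of each genotype held, and their part in the regions present in KO only was not tested.

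Over the 25 libraries, the gene with the most similar region numbers to each member had a Pearson correlation of 0.924 to 0.973, with libraries of different targets and list lengths as the points. For Mrc1 this was Slc35a3 (r = 0.973), for Pf4 Clec4d (0.952) and for Ms4a7 Cyth1 (0.924). For Cd163 it was Myh7b (0.972), for Lyve1 Atxn7l1 (0.959), for F13a1 Cped1 (0.960), for Stab1 Rwdd2a (0.972), for Folr2 Ttc21a (0.954) and for Cbr2 Stk4 (0.970). List length is shared by all genes of a library, so these correlations describe the lists as much as the genes.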

How the data were processed

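Per the file headers, the authors ran MACS on every library by itself, with version 2.2.7.1 for the transcription factors and 2.2.6 for the histone modifications, on paired-end fragments and with duplicates kept. Narrow calls (IRF8, PU.1, H3K27ac) bridged gaps up to 640 bp and used a q-value of 0.01, except PU.1 replicate 2 of either genotype at 0.05. The H3K4me1 calls were broad, with a minimum length of 1000 bp and a p-value threshold of 0.01, per the file headers. The deposited −log10 p-value and −log10 q-value and the fold enrichment (a ratio to the control) of each peak are the authors' values, used to rank and describe peaks inside 1 list. Where a library had several peaks in a region the strongest was taken. The submitters' processing notes name bcl2fastq, Trim Galore, Bowtie2, deepTools, MACS2 and the build mm10, with no parameters. No peak ends beyond its chromosome in GRCm38.p6, and genes were taken from GENCODE vM21. The P9, P14 and macrophage IRF8 libraries were each called against a control of their group. Adult IRF8, PU.1 replicate 1 and all histone libraries shared 1 control, and PU.1 replicate 2 had another, in both genotypes. The labels say that 4 of 7 P9 libraries and 2 of 3 KO H3K27ac libraries were provided.

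Each chromosome, start and end was counted once per library. An overlap needed 1 bp or more, and consensus regions merged peaks found in at least 2 libraries. The stage test was an exact two-sided Jonckheere-Terpstra permutation test per gene, with the replicate number as a block as an alternative. It was fitted for all genes with a region in at least 1 microglia IRF8 library, at an adjusted p of 0.05. The test was also run on simulated counts, but without a difference in list length between stages, so that run does not cover lists that lengthen as these did. Other comparisons are counts set beside the same count over all genes or regions. Python 3.11.15, numpy 2.4.6 and scipy 1.17.1 were used.

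All 9 genes are described. Single regions were named by a rule: the strongest adult IRF8 region of a gene, every PU.1 consensus region, and every PU.1 and H3K27ac region lost or present in KO only. The macrophage IRF8 regions of Mrc1, Cd163, Ms4a7 and Folr2, the adult replicate 3 region of Cd163, the regions of single P9 libraries, the H3K4me1 regions given with coordinates, the covered lengths and the sequences shown were chosen after their values were seen. The genes and marker lists were chosen with earlier results of these data known. The IgG control libraries were not analysed here other than through the authors' calls.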

Additional observations from a re-analysis of the deposited data

Results flagged for a closer look

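In 2 of the 9 gene windows 1 P9 library held an IRF8 region and the other 3 held none. A gap rule marks any such pattern, so its usual rate of about 1 in 20 groups by chance does not apply to these tied zeros, and the 7 windows at 0 throughout could not be marked. Mrc1 held 1 region in P9 replicate 1 and 0 in the others. That region, chr2:14250031-14250294, had a fold enrichment of 5.88 and lay inside the intron site that held IRF8 in every P14, adult and macrophage library. Lyve1 held 1 region in P9 replicate 3 and 0 in the others. It lay at chr7:110840583-110840876 in Rnf141, with a fold enrichment of 4.24, inside the region that held IRF8 in every P14, adult and macrophage library. All other windows held 0 IRF8 regions in the 4 P9 libraries.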

How the results depend on the processing

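Of 94 alternatives over 9 counts, 49 stayed within 1.5 times the reported count and 45 moved further. The cause of a move was not tested, except that shorter lists, smaller windows and fewer libraries give fewer regions by construction, and a genotype left with 1 library counts every region of that library. After each count below, the second percentage is that of all genes tested, all genes or all regions under the same setting. The stage increase, 5 of 9 genes (55.6%, against 46% of all), was called at 1 gene with gene bodies only (11.1% against 18.3%), 2 with the stronger part of each list (22.2% against 24.8%), 0 at equal list length (0% against 0%), and 2 to 6 with 1 library left out (9.73% to 49.6% of all). Genes with an adult region, 7, became 3 with gene bodies only (33.3% against 32.6%), 4 when all 3 libraries had to hold the region (44.4% against 34.1%), and 4 to 6 with 1 library left out (4 without replicate 2). Genes with a macrophage region, 9, became 4 with gene bodies only (44.4% against 23.4%) and 7, 6 and 8 without replicate 1, 2 and 3 (16.2%, 17.7% and 37.1% of all). Lost PU.1 regions, 0 of 2, became 0 to 5 with 1 library left out (at most 5 of 9, 55.6% against 58.6%). PU.1 regions present in KO only, 2 of 5 (40% against 16.5%), became 5 of 13 with 50 kb windows (38.5% against 16.5%), 1 of 4 with the stronger part of each list (25% against 20.1%), 1 of 4 at equal list length (25% against 17.6%), 1 of 4 at a q-value of 0.01 throughout (25% against 16.7%), and 2 to 6 with 1 library left out (at most 6 of 12, 50% against 47.3%). Lost H3K27ac regions, 4 of 23 (17.4% against 34%), became 1 of 10 with the stronger part of each list (10% against 34.9%), 1 of 9 at equal list length (11.1% against 35.4%), 15 of 23 when absence from the KO consensus sufficed (65.2% against 78.4%), and 6 to 29 with 1 library left out (at most 29 of 52, 55.8% against 59.5%). H3K27ac regions present in KO only, 7 of 18 (38.9% against 10.9%), became 11 of 38 with 50 kb windows (28.9% against 10.9%) and 8 to 54 with 1 library left out (at most 54 of 79, 68.4% against 55.9%). Lost H3K4me1 regions, 0 of 32 (0% against 13%), became 1 of 31 at equal list length (3.23% against 16%), 1 of 32 when an overlap had to cover at least 0.5 of the shorter region (3.13% against 16.6%), 3 of 32 when absence from the KO consensus sufficed (9.38% against 30.3%), and 1 to 6 with 1 library left out (at most 6 of 58, 10.3% against 44.1%). H3K4me1 regions present in KO only, 14 of 54 (25.9% against 23.8%), became 7 of 25 with gene bodies only (28% against 23.8%), 27 of 54 when absence from the WT consensus sufficed (50% against 44.4%), and 17 to 34 with 1 library left out (at most 34 of 85, 40% against 56%).

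With the replicate number as a block, added after seeing the data, the exact stage test called 0 of the 9 genes and 0% of all 16441 tested. It used replicates 1 to 3 of each stage and permuted stages within a number, so its smallest p was 0.00926 and its smallest adjusted p 0.103. At an unadjusted p under 0.05, 2 of the 9 genes and 31.5% of all were higher. The labels tie no replicate number to an animal, so the numbers were not taken as pairs. Deviations from the stage means, correlated across genes, exceeded 0.1 for 2 of 9 same-number pairs (-0.0473 to 0.22). Other-number pairs ranged from -0.24 to 0.107. The 2 same-number values, P14 against adult replicate 2 (0.22) and replicate 3 (0.169), were above every other pair, and a shared origin of these libraries was not tested. The genotype counts come from no test, and none was blocked. PU.1 replicates of 1 number shared a control and a threshold, and a PU.1 region present in both KO libraries and neither WT library is so within each number. A KO H3K27ac consensus region needs a peak in the shallow replicate 2, and the part of depth was not tested.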

Other observations

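Colec12, a scavenger receptor of the wider border macrophage list chosen after its values were seen, held no WT H3K27ac consensus region and 5 in KO, all 5 present in KO only. Its H3K4me1 consensus regions numbered 2 in WT and 11 in KO, and 5 of these were present in KO only. No IRF8 or PU.1 consensus region of any group lay in its window. Cd38, an ectoenzyme that consumes NAD, held 0 WT and 3 KO H3K27ac consensus regions, 1 of them present in KO only, beside 2 adult and 3 macrophage IRF8 regions. These 2 were the only genes of the 15 with more H3K27ac consensus regions in KO than in WT. Of the other 13, 9 had fewer, such as Dab2 with 11 in WT and 8 in KO and Timd4 with 2 and 0, and 4 had as many.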
